A study of Mus musculus with 6 samples.

Results

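The genes described are the MYC, MAX and MXD network of mouse: Myc, Mycn, Max, Mxd1, Mxd3, Mxd4, Mxi1 and Mnt. Every probe set that the platform annotation assigns to 1 of these 8 genes and to no other gene was taken, which gave 19 of 45037 probe sets. RNA came from fractions of prepubertal mouse testis cells parted by magnetic sorting for the surface glycoprotein Thy1. The Thy1-positive fraction holds more spermatogonial stem cells than the Thy1-negative fraction by transplantation, per the series' design text. Each fraction has 3 Affymetrix arrays from independent donor preparations, called P1, P2 and P3 (Thy1-positive) and N1, N2 and N3 (Thy1-negative). No genetic change, drug or transgene is given for either fraction, and the sources used here do not give the strain or the age in days. Both fractions are mixtures of cell types, so fewer cells of a type and less RNA per cell cannot be told apart.

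MYC and MYCN are transcription factors that bind DNA as partners of MAX, at the sequence CACGTG known as the E-box, and turn on genes for ribosome production, nucleotide synthesis and growth. The MXD proteins (MXD1, MXD3, MXD4 and MXI1) and MNT compete for MAX and for the same sequence and bring in the SIN3 corepressor, so that target genes are turned down. In cultured mouse spermatogonial stem cells, Myc and Mycn are known to promote self-renewal.

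The promoters are shown because 3 members carry the binding sequence of the network itself near their own start site. RefSeq promoters on GRCm38.p6, which run from 250 bases before the start site to 50 after it, were available for 7 of the 8 genes, all but Myc. Mxi1 has 3 such entries. CACGTG, which reads the same on both strands, was present in those of Max, Mxd4 and Mnt, and the letters did not occur in the windows of Mycn, Mxd1, Mxd3 and Mxi1. Of all 32851 RefSeq promoters of this length, 7.15% hold it, and of the 14452 measured genes with a promoter 10.2% do. Its first base lies 3 bases before the start site in Max, which the motif crosses, 219 before it in Mxd4 and 123 before it in Mnt. The sequences run 5′ to 3′ on the strand of the gene and stop at the start site, except that of Max, which goes on to the end of the motif. Capitals mark CACGTG. Mxd1, whose RNA differed most between the fractions, is given beside them. A match is a description of the letters and not a site in use.
Mxd1 (minus strand, chr6:86669160-86669409): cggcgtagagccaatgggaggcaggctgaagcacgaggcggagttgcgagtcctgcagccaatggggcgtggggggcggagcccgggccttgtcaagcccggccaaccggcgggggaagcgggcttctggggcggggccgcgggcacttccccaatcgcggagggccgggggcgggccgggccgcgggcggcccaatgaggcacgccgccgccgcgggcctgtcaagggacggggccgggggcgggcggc
Max (minus strand, chr12:76962246-76962498): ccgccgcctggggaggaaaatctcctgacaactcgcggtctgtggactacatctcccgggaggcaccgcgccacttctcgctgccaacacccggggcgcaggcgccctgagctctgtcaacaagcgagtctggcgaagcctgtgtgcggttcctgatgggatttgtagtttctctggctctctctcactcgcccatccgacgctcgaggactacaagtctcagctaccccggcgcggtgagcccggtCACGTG
Mnt (plus strand, chr11:74830674-74830923): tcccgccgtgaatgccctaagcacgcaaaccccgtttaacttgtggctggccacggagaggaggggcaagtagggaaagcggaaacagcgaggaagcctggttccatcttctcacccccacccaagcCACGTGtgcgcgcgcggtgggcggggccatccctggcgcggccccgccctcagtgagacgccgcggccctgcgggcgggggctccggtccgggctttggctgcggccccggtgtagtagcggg
Mxd4 (minus strand, chr5:34187711-34187960): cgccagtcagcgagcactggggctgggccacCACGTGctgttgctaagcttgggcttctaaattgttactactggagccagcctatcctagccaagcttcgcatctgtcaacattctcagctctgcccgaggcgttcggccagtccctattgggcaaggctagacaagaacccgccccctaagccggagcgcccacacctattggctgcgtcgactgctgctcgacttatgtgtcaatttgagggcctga

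The deposited values are intensities on a linear scale. Differences are Thy1-positive minus Thy1-negative on the log2(intensity + 1) scale, tested with limma over all probe sets with Benjamini-Hochberg adjustment, and a probe set is said to have risen or fallen where the adjusted p was below 0.05 (n = 3 arrays per fraction throughout). Array medians lay between 15.7 and 17.5 and lower quartiles between 5.34 and 5.42, and the number of arrays limits the precision. The fractions differed across much of the transcriptome: 23.4% of all probe sets were called, 11.8% higher and 11.5% lower in Thy1-positive cells. With each array centred on its median, 25863 probe sets were higher and 5912 lower, against 5332 and 5201 as reported, and the median difference of all genes moved to 0.13, against 0.01.

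Markers of several cell types parted the fractions. Macrophage markers passed as higher in 12 of 12 cases (summed intensity 14438 to 21533 in Thy1-positive cells, against 145 to 183 in Thy1-negative cells), with C1qa at a difference of 7.99. Markers of undifferentiated spermatogonia rose in 11 of 12 cases (19447 to 21399 against 2864 to 5236), led by Tcl1 (3.92) and Lhx1 (3.68), general germ cell genes in 2 of 9 (42814 to 44347 against 11203 to 31196), T lymphocyte genes in 3 of 5 (405 to 433 against 40.7 to 56.4) and endothelial genes in 1 of 6 (86.3 to 168 against 86.1 to 159). Sertoli cell genes fell in 11 of 12 cases (9416 to 24431 against 91079.9 to 116486), with the hormone Amh at -5.61, myoid genes in 5 of 7 (2499 to 3457 against 16355 to 17989.5) and Leydig cell genes in 1 of 4 (2309 to 3732 against 4801 to 9694). Mean signal lay below the lower quartile of the arrays for 4 macrophage and 2 T lymphocyte genes in Thy1-negative cells, and for 2 Sertoli, 1 myoid and 1 endothelial gene in Thy1-positive cells. P2 had the highest Sertoli sum of the Thy1-positive arrays (24431, with 9416 and 9922 on P1 and P3), and N2 the highest germ cell sum of the Thy1-negative arrays (31196, with 11203 and 15292 on N1 and N3). The part of these cell types in the results on the network was not tested.

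Within the network, 4 of the 19 probe sets fell in Thy1-positive cells and 0 rose by limma; at an unadjusted p below 0.05, 6 were lower and 0 higher. Those that fell belong to Mxd1 (2 of its 3), Mxi1 (1 of 2) and Myc (its single one). The called share of the members, 21.1%, is near the 23.4% of all probe sets, so the number of calls sets the network apart in no way. The share that fell, also 21.1%, stands beside 11.5% of all probe sets. It is near the 20.5% that fell of the 11255 genes above the median of the table, taken by their brightest probe set. Without overlap between the fractions, 7 of the 19 were lower in Thy1-positive cells, where 18.7% of all probe sets were, and 1 was higher, where 24.9% were. By the brightest probe set of each gene, 3 of the 8 genes fell and 0 rose. Over all 18193 genes 29.6% were called, 13.2% lower and 16.4% higher. Among genes above the median, where the brightest probe sets of all 8 members lie, 20.5% were lower and 24.4% higher. Of the 8 genes, 5 were lower without overlap, where 19.8% of all genes were, and 0 were higher, where 31.6% were. The shares without overlap cover all intensities and were not taken for genes above the median alone. Of the 19 probe sets 15 had a mean above the median of the table. With the replicate number as a further term in the fit, 0 of the 19 were called by limma.

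**Figure D1:**
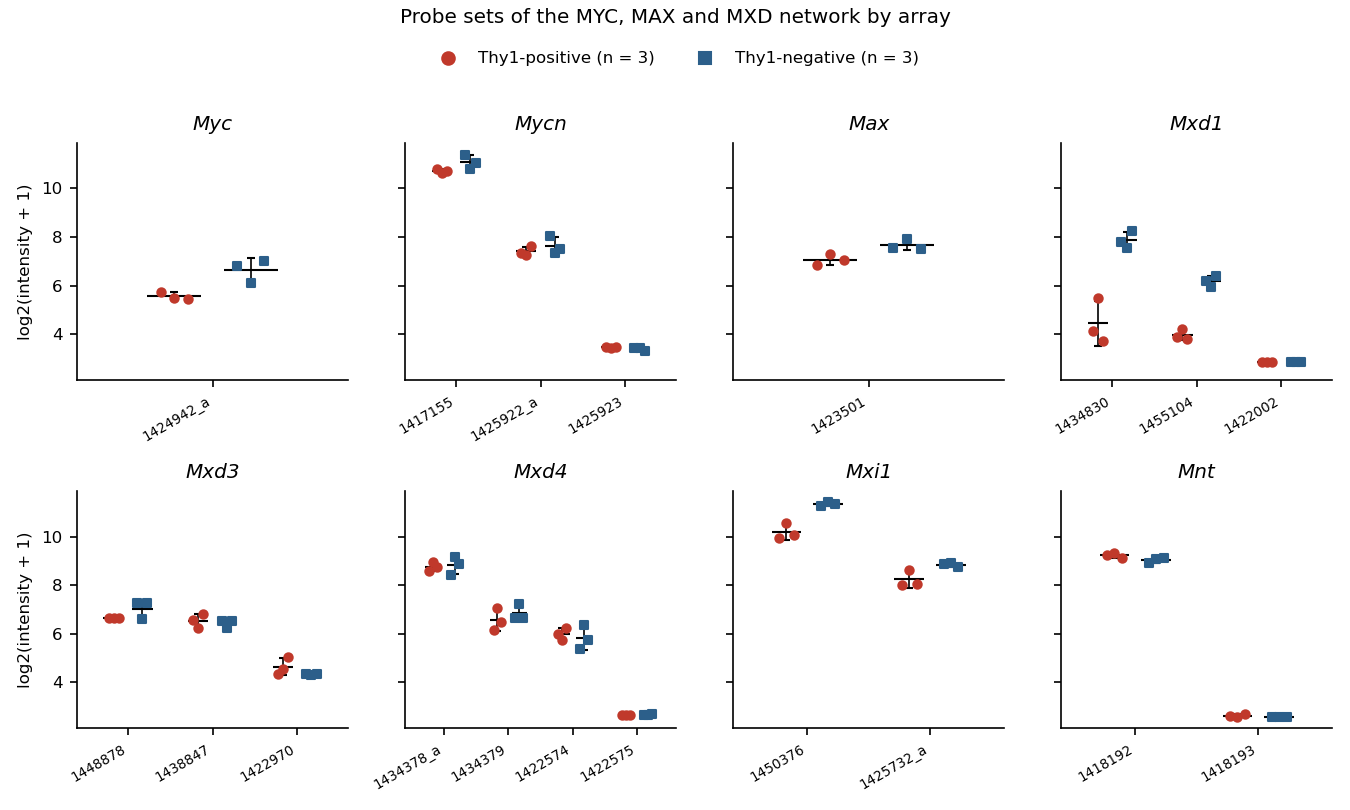
Log2(intensity + 1) of each of the 19 probe sets (number below, without its ending) on the 3 Thy1-positive arrays (circles, left of each pair) and the 3 Thy1-negative arrays (squares), with mean and SD. The fractions lie apart for 2 probe sets of Mxd1, both of Mxi1, 1 of Mycn and those of Myc and Max, and lie close together or overlap for Mxd4 and Mnt; levels of different probe sets are not comparable.

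Mxd1 encodes a MAX partner that represses MYC targets and is known for its rise when cells leave the cycle and differentiate. Its brightest probe set, 1434830_at, measured 16.3, 44.4 and 12.3 on P1, P2 and P3, against 223, 187 and 302 on N1, N2 and N3. Every Thy1-positive array was below every Thy1-negative array, with P1 and P3 near the median of their arrays. The Thy1-positive arrays averaged 4.45 ± 0.93 and the Thy1-negative arrays 7.87 ± 0.35 (log2, SD). The probe set fell by 3.42 on the log2 scale (SE 0.54, limma adjusted p = 0.0165), or 10.7-fold. The second probe set of Mxd1, 1455104_at, measured 13.8, 17.6 and 13.0 on the Thy1-positive arrays, against 73.1, 60.7 and 83.8 on the Thy1-negative arrays. It fell by 2.22 (SE 0.17, limma adjusted p = 0.00386), or 4.66-fold. Both probe sets were highest within their fraction on P2 and lowest within theirs on N2. The third, 1422002_at, stayed between 6.19 and 6.24 on all 6 arrays, below the median of each, and its difference was -0.00 (95% interval -0.02 to 0.02). For 1455104_at the call held in each of the 6 fits that leave out 1 array (-2.34 to -2.11). For 1434830_at it held without P2 or N2 and was lost without P1 (-3.25), P3 (-3.06), N1 (-3.45) or N3 (-3.23). With a pseudocount of 16 the differences were -2.71 and -1.52. Sertoli and myoid cell markers fell in the same samples, and their sums were highest among the Thy1-positive arrays on P2 as well (myoid 3457, with 2499 and 2616 on P1 and P3). Macrophage markers, which rose, also had their highest sum on P2, while Leydig cell markers had their lowest Thy1-positive sum there. Among the Thy1-negative arrays the Sertoli (91079.9), Leydig (4801) and macrophage (145) sums were lowest on N2, as both called Mxd1 probe sets were. The myoid sum was highest there (17989.5). The part of these cell types in the result was not tested.

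Mxi1 encodes another MAX-binding repressor of the same family. Probe set 1450376_at measured 976, 1494 and 1076 on P1, P2 and P3, against 2476, 2779 and 2566 on N1, N2 and N3. The fractions did not overlap, and P2 was the highest Thy1-positive array. Mxi1 fell by 1.16 (SE 0.18, limma adjusted p = 0.0158), or 2.24-fold. The call was lost without P3 (-1.11), N1 (-1.20) or N3 (-1.17). The other probe set, 1425732_a_at, measured 259, 395 and 268 against 469, 483 and 431 in the same order of arrays. It lay lower on every Thy1-positive array but did not pass (-0.61, SE 0.19, limma adjusted p = 0.0864); it passed without P2 (-0.80), with adjustment over probe sets above the median (adjusted p = 0.0340), with array weights (-0.70) and without both arrays numbered 2 (-0.77). An ending in _a_at marks a probe set designed to match several transcripts of a gene, and the sources used here do not say which Mxi1 isoforms each probe set reads.

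The other repressors of the family gave no call. Mxd3, which is known for expression in cycling cells, measured 99.6, 98.9 and 100.1 on the Thy1-positive arrays with probe set 1448878_at, against 152, 96.7 and 151 on the Thy1-negative arrays. N1 and N3 were high while N2 lay below all Thy1-positive arrays (-0.39, 95% interval -0.92 to 0.14, limma adjusted p = 0.262). Without N2 the probe set was lower with a limma adjusted p of 0.000459 (-0.60), and it was also called with array weights (-0.57) and without both arrays numbered 2 (-0.60). The other Mxd3 probe sets pointed the other way, 1438847_at by 0.10 (-0.37 to 0.57) and 1422970_at by 0.32 (-0.18 to 0.81). For 1422970_at the values were 19.5, 22.5 and 31.8 in Thy1-positive cells, against 19.5, 18.5 and 19.5 in Thy1-negative cells, so that the fractions were apart only beyond the digits shown. For Mxd4 probe set 1434378_a_at measured 385, 498 and 424 on P1, P2 and P3, against 342, 579 and 473 on N1, N2 and N3. The fractions overlapped, with a difference of -0.07 (95% interval -0.67 to 0.54). Its probe sets 1434379_at and 1422574_at differed by -0.27 and 0.16, and 1422575_at lay at the lower quartile on all arrays (5.28 to 5.48). Mnt, the widely expressed repressor of the network, measured 601, 647 and 558 on the Thy1-positive arrays with 1418192_at, against 483, 536 and 558 on the Thy1-negative arrays. P3 and N3 were equal, and the other Thy1-positive arrays lay above all Thy1-negative ones. It was the 1 gene of the network with its brightest probe set higher in Thy1-positive cells (0.20, 95% interval -0.02 to 0.41, limma adjusted p = 0.178), and it did not pass; with arrays centred on their median it did (0.32, adjusted p = 0.0163), and so did the average of both probe sets (0.12, adjusted p = 0.0473). The second Mnt probe set lay at the lower quartile (4.96 to 5.57).

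**Figure D2:**
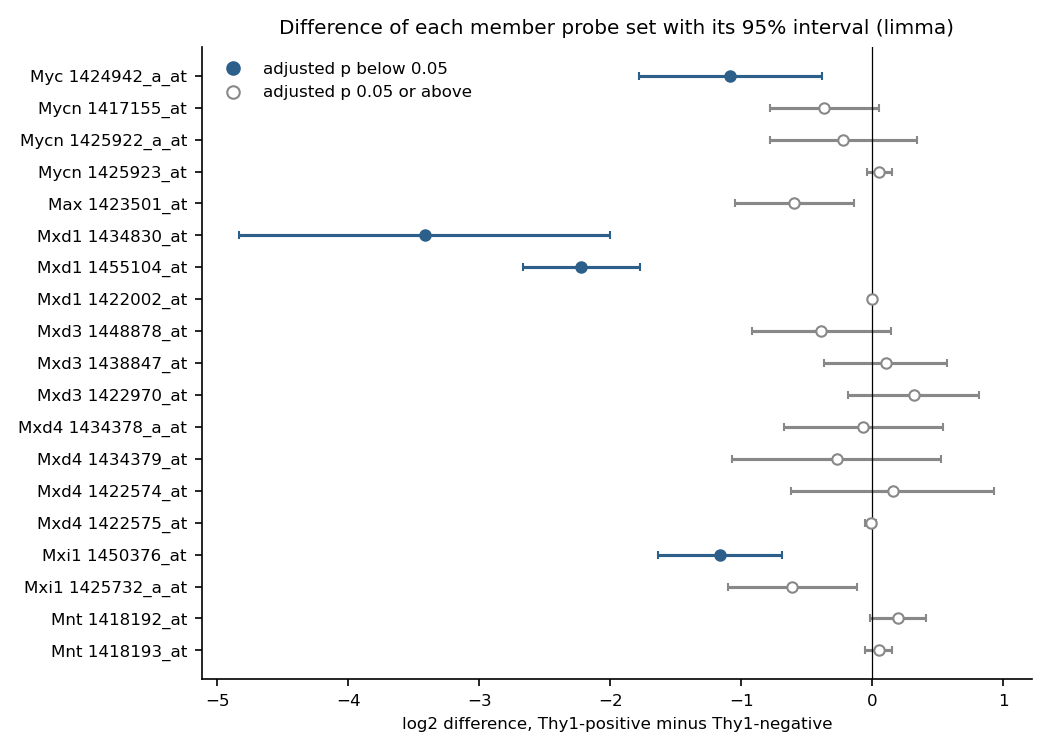
Log2 difference, Thy1-positive minus Thy1-negative, of each of the 19 probe sets with its 95% interval from limma; filled points have an adjusted p below 0.05. The largest falls are those of Mxd1 (-3.42 and -2.22), followed by Mxi1 (-1.16) and Myc (-1.08), and the widest interval is that of Mxd1 1434830_at.

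Myc, the proto-oncogene that drives growth and cell cycle entry, has 1 probe set here, 1424942_a_at. It measured 52.7, 44.7 and 43.0 on P1, P2 and P3, against 112, 69.0 and 128 on N1, N2 and N3. The Thy1-positive arrays lay close together and below all Thy1-negative arrays, of which N2 was lowest. Myc fell by 1.08 (SE 0.26, limma adjusted p = 0.0484), or 2.12-fold. This p is close to the threshold: with quantile normalization it was 0.0703 (-0.96) and with a pseudocount of 16 it was 0.0590 (-0.89). Of the 6 fits that leave out 1 array the call held without N2 alone (-1.35) and was lost without P1 (-1.17), P2 (-1.05), P3 (-1.03), N1 (-0.999) or N3 (-0.90).

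Mycn, the close relative of Myc with the same DNA-binding partner, had no call. Its probe set 1417155_at measured 1775, 1602 and 1668 on the Thy1-positive arrays, against 2665, 1806 and 2107 on the Thy1-negative arrays. All Thy1-positive values lay below all Thy1-negative values, and P1 (1775) and N2 (1806) nearly met. The difference was -0.36 (95% interval -0.78 to 0.05, limma adjusted p = 0.189), and it passed with array weights (-0.39, adjusted p = 0.0281). Probe set 1425922_a_at differed by -0.22 (-0.78 to 0.34) and measured 163 on both P1 and N2, while 1425923_at stayed between 9.07 and 10.1, below the median of the arrays. The small difference of 1425923_at (0.05) passed as higher with arrays centred on their median (0.18) and with array weights (0.11). Set against each other within each array, log2 Mycn minus log2 Myc averaged 5.14 ± 0.10 on the Thy1-positive arrays and 4.43 ± 0.35 on the Thy1-negative arrays (SD, n = 3 each). The ratio was higher on every Thy1-positive array, by 0.72, and the two-sided exact permutation test gave p = 0.1, the smallest that 3 against 3 arrays allow. The ratio compares the change of the genes and not their levels.

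Max encodes the shared partner with which MYC, MYCN and the MXD proteins bind DNA. Its 1 probe set, 1423501_at, measured 113, 158 and 133 on P1, P2 and P3, against 189, 239 and 184 on N1, N2 and N3. The fractions did not overlap, yet the difference did not pass (-0.60, SE 0.17, 95% interval -1.05 to -0.14, limma adjusted p = 0.0739). It passed with adjustment over probe sets above the median (adjusted p = 0.0304), with arrays centred on housekeeping genes (adjusted p = 0.0402) and with array weights (adjusted p = 0.00790).

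By the likeness of their profiles over the 6 arrays (root-mean-square difference of centred log2 values, among 11254 other genes above the median), the genes nearest to Mxd1 were Cpe (0.208, difference -3.29) and Tnfrsf12a (0.217, difference -3.41). Those nearest to Mxi1 were Slc35d1 (0.0492, difference -1.14) and Mcfd2 (0.0678, difference -1.19). Those nearest to Myc were Prkaa1 (0.0711, difference -1.09) and Gm20559 (0.0751, difference -0.997). For the genes without a call the nearest were Cep57l1 (0.0333) and Hsd17b10 (0.0404) to Mycn, Tcea2 (0.0407) and 4930402H24Rik (0.0549) to Max, and Khk (0.0493) and Naa20 (0.0634) to Mxd3. Cyld (0.0976) and Sgms2 (0.102) lay nearest to Mxd4, and Eef1a2 (0.0393) and Dcaf5 (0.0480) to Mnt. With 6 arrays in 2 fractions, a similar difference between the fractions is enough to give a small value.

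The wider network around MAX and its sister protein MLX moved in both directions, taking the brightest probe set of each gene. Of 5 genes 2 rose and 1 fell, beside 16.4% and 13.2% of all 18193 genes (24.4% and 20.5% of genes above the median). The number that rose was 1 without P1, P2 or N1, 0 without P3 or N3 and 3 without N2, and the number that fell was 1 without P1 or P2 and 0 in each other fit. Mlxipl, the carbohydrate-responsive factor ChREBP, measured 31.6, 108 and 59.3 on P1, P2 and P3, against 355, 379 and 322 on N1, N2 and N3. It fell by 2.55 (SE 0.47, limma adjusted p = 0.0244), or 5.88-fold, and like Mxd1 it was highest among the Thy1-positive arrays on P2. Mlx, the partner that MLXIPL, MXD1 and MNT can bind, measured 383, 324 and 335 against 209.8, 163 and 158 and rose 1.96-fold (0.97, SE 0.14, limma adjusted p = 0.0131). Mga, a large MAX partner of a Polycomb complex, measured 2104, 2554 and 2119.7 against 1437, 1704 and 1463 and rose 1.47-fold (0.56, SE 0.11, limma adjusted p = 0.0299); 1 of its 5 probe sets was called. Mlxip differed by 0.16 (SE 0.06) and Mycl by 0.32 (SE 0.28), and neither passed by its brightest probe set. Another of the 3 Mycl probe sets did (0.68, limma adjusted p = 0.0479), and so did the average of all 3 (0.58). Mlxip passed without N2 (0.22), with arrays centred on their median (0.29) and with array weights (0.16). Among the 6 fits without 1 array Mlx was called in 4 (not without P3, 1.00, or N3, 0.90), Mlxipl in 2 (not without P3, -2.56, N1, -2.55, N2, -2.50, or N3, -2.62) and Mga without N2 alone (0.63, with 0.46 to 0.60 without each of the others).

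Of the SIN3 corepressor, through which the MXD proteins act, 3 of 15 genes rose (20.0%) and 4 fell (26.7%). Over all genes 16.4% rose and 13.2% fell (24.4% and 20.5% of genes above the median). The median difference of the list was -0.14, and 0.0068 with averaged probe sets. The number that rose was 1 without P1, P2, N1 or N3, 0 without P3 and 4 without N2, and the number that fell was 3 without P1, N1 or N3, 2 without P3 and 4 without P2 or N2. The paralogous scaffolds went opposite ways. Sin3a measured 1974, 2108 and 2021 on P1, P2 and P3, against 960.1, 1513 and 1041 on N1, N2 and N3, and rose 1.77-fold (0.82, SE 0.19, limma adjusted p = 0.0419), with 3 of its 3 probe sets called. Sin3b measured 3935, 4969 and 4148 against 8529.7, 7975 and 7573 and fell 1.85-fold (-0.89, SE 0.11, limma adjusted p = 0.00930), with 4 of its 5 probe sets called. Brms1 (1.09, SE 0.21) and Brms1l (-1.20, SE 0.08), a further pair of related subunits, also moved apart. Sap30 rose (0.55, SE 0.07) and Ing2 fell (-0.66, SE 0.15). Among the fits without 1 array Brms1l was called in 6, Sin3b in 5 (not without P3, -0.86) and Sap30 in 4 (not without P3, 0.52, or N3, 0.55). Brms1 was called without N2 or N3 and lost without each other array (1.03 to 1.17). Sin3a and Ing2 were called without N2 alone and lost without each other array (0.70 to 0.85 for Sin3a, -0.70 to -0.54 for Ing2).

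Of genes listed as cofactors or binding proteins of MYC, 8 of 14 rose and 1 fell. Over all genes 16.4% rose and 13.2% fell (24.4% and 20.5% of genes above the median). The median difference of the list was 0.55, and 0.34 where the probe sets of each gene were averaged. Bin1, a MYC-binding adaptor protein, rose most (1.57, SE 0.18, limma adjusted p = 0.00846), measuring 639.6, 550.1 and 674 in Thy1-positive cells, against 251, 167 and 214 in Thy1-negative cells. Wdr5, a scaffold of histone methyltransferases, rose 2.01-fold (1.01, SE 0.13) and Ruvbl1, an ATPase of chromatin complexes, 1.88-fold (0.91, SE 0.12). Ccnt1, the cyclin of the elongation kinase P-TEFb, fell (-0.49, SE 0.02, limma adjusted p = 0.000610), with values of 258, 261 and 267 against 369, 369 and 365. The number that rose was 5 without P1, P2 or N1, 3 without P3, 10 without N2 and 4 without N3, and the number that fell was 2 without P2 and 1 in each other fit. Bin1 and Ccnt1 were called in all 6 fits without 1 array, Wdr5 in 5 (not without P3, 1.02) and Ruvbl1 in 4 (not without P3, 0.90, or N3, 0.92).

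Of genes that set the stability of the MYC protein, 4 of 11 rose and 1 fell. Over all genes 16.4% rose and 13.2% fell (24.4% and 20.5% of genes above the median). The median difference of the list was 0.63, and 0.36 with averaged probe sets. The number that rose was 1 without P1, P3 or N3, 2 without N1, 3 without P2 and 4 without N2, and the number that fell was 0 without P1, P3 or N2 and 1 in each other fit. Ppp2r5a, a phosphatase subunit that acts on MYC, rose 1.88-fold (0.91, SE 0.10, limma adjusted p = 0.00735). Pim1, a kinase known to stabilise MYC, rose 1.75-fold (0.81, SE 0.20, adjusted p = 0.0484), and Usp28, a deubiquitinase, 1.62-fold (0.69, SE 0.11). Gsk3b, the kinase that marks MYC for degradation, fell 2.05-fold (-1.04, SE 0.19, adjusted p = 0.0236), with 2 of its 6 probe sets called. Ppp2r5a was called in all 6 fits without 1 array, Usp28 without N1 or N2 (lost at 0.68 to 0.70), Gsk3b without N1 or N3 (lost at -1.12 to -0.96) and Pim1 without N2 alone (lost at 0.67 to 0.89).

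In the Polycomb complex PRC1.6, MAX and MGA hold germ cell genes silent in mouse embryonic stem cells. Of its genes 5 of 12 rose and 2 fell. Over all genes 16.4% rose and 13.2% fell (24.4% and 20.5% of genes above the median). The median difference of the list was 0.52, and 0.32 with averaged probe sets. Cbx3, 1 of the 12, had low signal in both fractions. The number that rose was 3 without P1, P2, N1 or N3, 2 without P3 and 7 without N2, and the number that fell was 1 without P3 or N3 and 2 in each other fit. Pcgf6, the subunit that defines the complex, measured 1788, 1853 and 1908 on P1, P2 and P3, against 703, 742 and 641 on N1, N2 and N3. It rose 2.66-fold (1.41, SE 0.06, limma adjusted p = 0.00109), with 2 of its 3 probe sets called. Tfdp1, the partner of the E2F factors, rose 1.69-fold (0.76, SE 0.17), and Wdr5, given above among the cofactors, belongs here too. The ubiquitin ligase genes Ring1 (-0.90, SE 0.10) and Rnf2 (-0.50, SE 0.07) fell. Pcgf6 and Ring1 were called in 6 of 6 fits without 1 array, Rnf2 in 4 (not without P3, -0.51, or N3, -0.50) and Tfdp1 without N2 alone (lost at 0.64 to 0.77). Averaged over its probe sets, Rnf2 differed by 0.041.

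**Figure D3:**
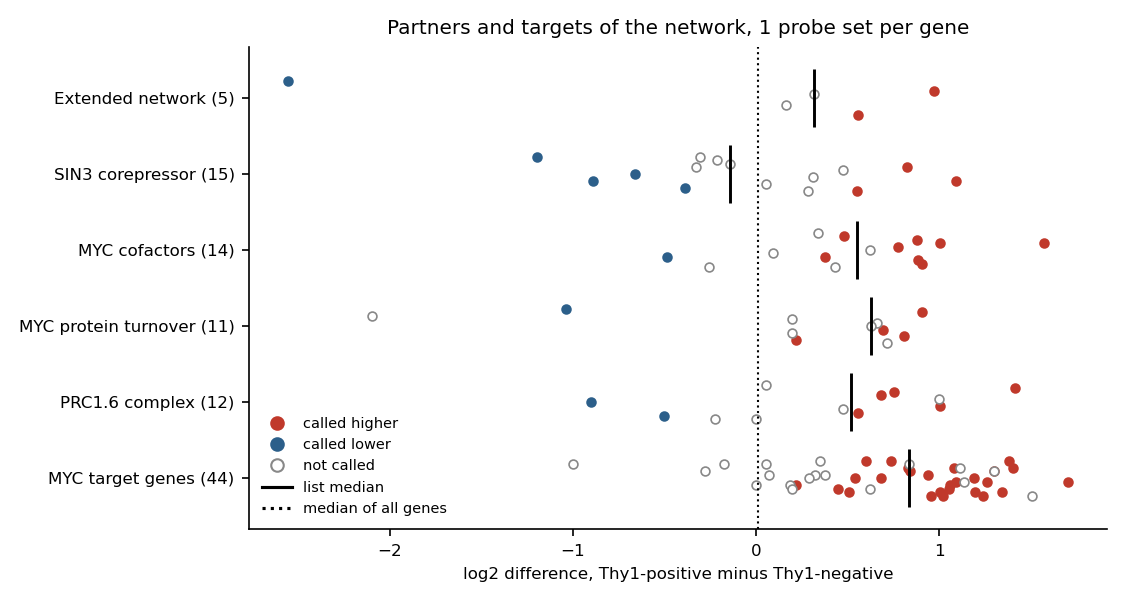
Log2 difference, Thy1-positive minus Thy1-negative, of each gene in 6 lists of network partners and targets (number of genes measured in brackets), by the brightest probe set. Filled points have an adjusted p below 0.05, thick bars are list medians and the dotted line is the median of all genes (0.01). Most points of the MYC target list lie right of 0 (median 0.84), whereas those of the SIN3 list lie on both sides (median -0.14).

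The list of known MYC target genes holds chiefly genes of ribosome production and nucleotide metabolism. Of 44 measured, 26 rose (59.1%) and 0 fell by limma (30 and 1 at an unadjusted p below 0.05), with a median difference of 0.84, while the median of all genes was 0.01. Of the 11255 genes above the median of the table, a closer match in intensity, 24.4% rose and 20.5% fell, with a median of 0.14. By sign alone 40 of the 44 were higher. Nme1, a nucleoside diphosphate kinase, measured 8779.9, 6023 and 7993 on P1, P2 and P3, against 1891, 2863 and 2255 on N1, N2 and N3. Nme1 rose 3.26-fold (1.70, SE 0.22, limma adjusted p = 0.0112). Ppan, a factor of large ribosomal subunit assembly, measured 1334, 1329.6 and 1483 against 398, 797 and 444 and rose 2.65-fold (1.41, SE 0.29, limma adjusted p = 0.0324). Shmt2, a mitochondrial enzyme of one-carbon metabolism, measured 2688, 2073 and 2493 against 800.4, 1046 and 935 and rose 2.61-fold (1.38, SE 0.15, limma adjusted p = 0.00748). By the brightest probe set, no Thy1-positive array of these 3 genes was as low as any Thy1-negative array. The other Nme1 probe set measured 2748, 2412 and 2718 in Thy1-positive cells, against 2211, 2558 and 2229 in Thy1-negative cells. On that probe set the fractions overlapped, and the difference did not pass (0.17, limma adjusted p = 0.245).

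The number of MYC targets that rose depended on the arrays. It was 7 without P1, 17 without P2, 3 without P3, 10 without N1, 31 without N2 and 5 without N3, and 30 without both arrays numbered 2. With the replicate number as a further term in the fit, 0 targets were called by limma (25 higher and 1 lower at an unadjusted p below 0.05). The median difference stayed between 0.72 and 1.08 in the fits without 1 array. Shmt2 was called in all 6, Nme1 in 4 (not without P3, 1.66, or N3, 1.69) and Ppan without N2 alone (lost at 1.21 to 1.43). The mean log2 of the list was 11.16, 11.01 and 11.18 on P1, P2 and P3, against 10.21, 10.60 and 10.33 on N1, N2 and N3. N2 was the highest of the Thy1-negative arrays. It was highest for the germ cell markers too, with a mean log2 of 9.09, 10.97 and 9.73 on N1, N2 and N3. The germ cell mean log2 in Thy1-positive cells was 11.62, 11.56 and 11.63. Of the Thy1-negative arrays, N2 also had the highest sums for undifferentiated spermatogonia (5236), myoid (17989.5) and T lymphocyte genes (56.4). Myoid genes, unlike the targets, fell in Thy1-positive cells. Sertoli, Leydig, macrophage and endothelial sums were lowest on N2. The part of these cell types in the result on the targets was not tested. The 4 targets that pointed the other way without passing were Ldha (-0.999, limma adjusted p = 0.0882), a lactate dehydrogenase subunit, Hk2 (-0.28), Odc1 (-0.17) and Ccnd2 (-0.00), which were named after their values had been seen.

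**Figure D4:**
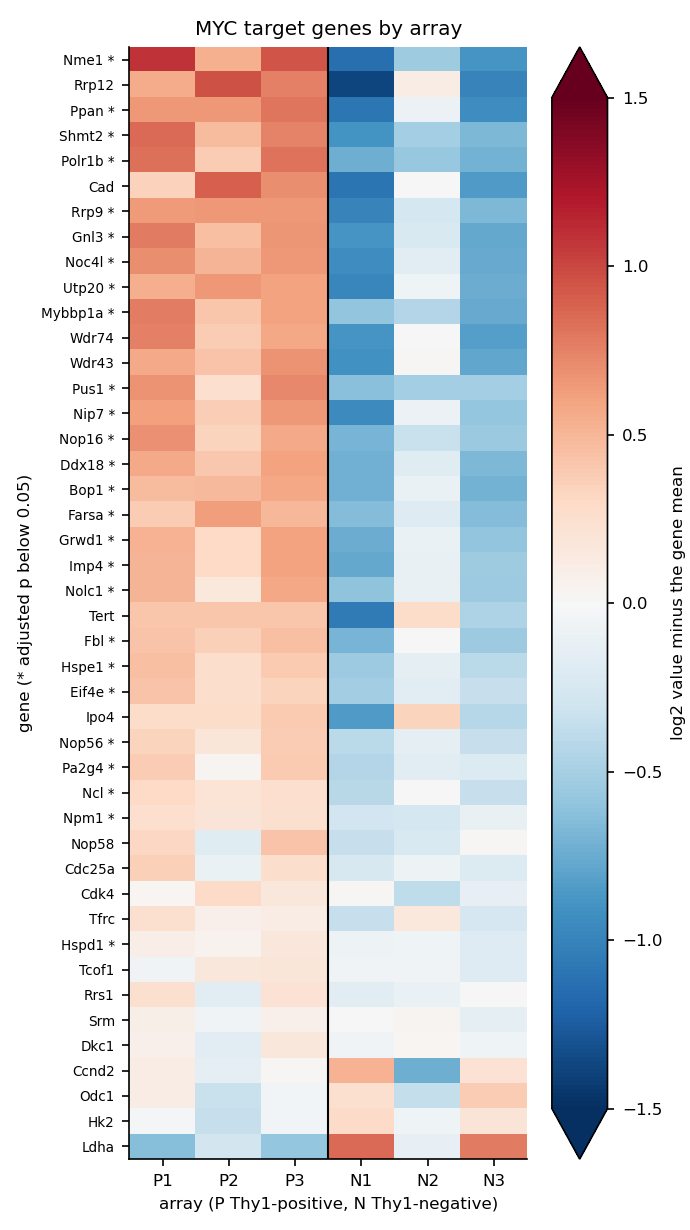
Log2 values of the 44 MYC target genes, each centred on its mean over the 6 arrays, from the highest difference at the top to the lowest; columns are the Thy1-positive arrays P1 to P3 and the Thy1-negative arrays N1 to N3, and an asterisk marks an adjusted p below 0.05. The upper rows are high on all Thy1-positive arrays and low on N1 and N3, with N2 in between, and Ldha in the bottom row shows the opposite pattern.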

How the data were processed

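The table holds 1 intensity per probe set for each of 6 arrays, on a linear scale as the authors deposited it. Per the submitters' processing notes the tool was GCRMA, with no version, while the sample descriptions in the labels name Affymetrix Microarray Suite; the sources used here do not settle which of these made it. Values near the lower quartile hardly vary between arrays. Detection calls were not used here. Of 45101 probe sets, 64 controls were left out. Genes were named from the platform annotation (34945 probe sets with 1 gene, 932 with several, 9160 with none), checked by Entrez identifier against RefSeq GRCm38.p6, which updated 0 symbols and left 204 probe sets without a match. Where 1 probe set stands for a gene, it is the one with the highest mean (18193 genes); 15 listed genes without such a probe set are not analysed here.

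Values were taken as log2(intensity + 1), without further normalization or filter, and fitted with limma 3.58.1 in R 4.3.3 (lmFit and eBayes, fraction as the single term, two-sided), and p-values were adjusted over the 45037 tested probe sets by the method of Benjamini and Hochberg, with a threshold of 0.05. SE and 95% intervals are those of limma and SD is over 3 arrays. The fit was tested on simulated data. Samples were grouped by title. Replicate numbers were not treated as pairs. The named genes were all 8 members, all 5 genes of the wider network, in each other list up to 3 called genes with the largest differences per direction, for each cell type up to 2 with the largest differences, and the 2 nearest profiles of each member. The members and lists were chosen with earlier results of these data known. Alternatives were quantile normalization, 2 centrings, filters and a floor on low values, a pseudocount of 16, the replicate block, an intensity trend, array weights, leaving out arrays, gene-level fits and gene means; leaving out both arrays numbered 2 was added after seeing the data.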

Additional observations from a re-analysis of the deposited data

How the results depend on the processing

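Counts of calls moved by over 1.5 times where arrays were centred on their median, weighted, blocked or left out. The correlations of deviations between same-numbered arrays of the fractions were -0.22, -0.19 and -0.02. They cannot decide whether the numbers mark pairs, because a shared preparation could move such arrays the same way or opposite ways. With the replicate block 746 probe sets rose and 485 fell in all. Under the block 0 member probe sets, 0 member genes and 0 MYC targets were called by limma. At an unadjusted limma p below 0.05 it gave 6 lower probe sets and 4 lower genes of the network, and 25 higher and 1 lower MYC target. In the other lists the block gave 2 higher and 0 lower genes of the wider network, 0 and 0 of SIN3, 2 and 1 of the cofactors, 0 and 0 of MYC turnover, and 3 and 0 of PRC1.6. Array weights gave 11031 higher and 9337 lower probe sets, with 1 higher and 8 lower among the members (6 lower genes) and 40 higher and 2 lower MYC targets. Centring on array medians gave 25863 higher probe sets, 5 higher member probe sets and 1 higher member gene, and turned 1422002_at of Mxd1 to 0.12 and 1422575_at of Mxd4 to 0.11, both below the median of the table; by construction, such centring moves all values of 1 array by the same amount. Means of all probe sets of a gene gave 1 higher member gene (Mnt, 0.12) and turned Rnf2 to 0.041; the cause was not tested. Of MYC targets 1 fell with probe sets above the median only and 2 without both arrays numbered 2. Without 1 array, which leaves fewer samples, the higher and lower counts ran over 1639 to 6790 and 1538 to 6214 for all probe sets, 1 to 5 lower member probe sets, 0 to 4 lower member genes, and 3 to 31 higher and 0 to 1 lower MYC targets; in these fits Mycn minus Myc ran from 0.52 to 0.85. Both called probe sets of Mxd1 and that of Mxi1 kept their call with quantile normalization, both centrings, the filter, the floor, a pseudocount of 16, the intensity trend and array weights, and lost it with the replicate block. Low signal limits 4 probe sets below the median of the table, 1 each of Mycn, Mxd1, Mxd4 and Mnt.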

Other observations

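Genes with CACGTG in their promoter were compared with other genes. A gene with several promoter entries counted as holding the motif where any of them did. Of 14452 measured genes with a RefSeq promoter, 1479 held the motif, and 21.7% of these rose in Thy1-positive cells and 13.4% fell, while of the 12973 genes without it 16.4% rose and 13.2% fell. The median differences were 0.07 and 0.01. Of the 36 MYC target genes with a RefSeq promoter, 12 held the motif (33.3%), where 10.2% of the 14452 measured genes did. These shares are a description and were not tested.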
